A study of Mus musculus with 4 samples.

Results

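The genes that write, maintain and remove DNA methylation were examined in mouse ovaries at E13.5. They were chosen by name as 8 of the 34682 gene symbols in the count table, and comprise the methyltransferases Dnmt1, Dnmt3a and Dnmt3b, the cofactors Dnmt3l and Uhrf1, and the oxidases Tet1, Tet2 and Tet3. RNA-seq counts came from 2 libraries of Sall1-overexpressing mutant ovaries and 2 libraries of wild-type ovaries, numbered replicate 1 and replicate 2 in each genotype. The mutants carried a BAC, a large genomic insert, in which the Sall1 coding sequence replaces Wt1 under the Wt1 regulatory elements, so that the transgene is meant for the somatic cells of the gonad and not for the germ cells. It was inserted by piggyBac transposition, with a neomycin-kanamycin resistance cassette, into a female embryonic stem cell line of C57BL/6J (or, in another place of the methods, hybrid) background from which mice were made by morula aggregation. The wild-type embryos carried no transgene and are called littermates in one place of the study's text, while its methods name CD1 gonads and the count columns contain B6, so a difference of strain between the groups cannot be told apart from genotype. Neither the labels nor the methods say how many clones or embryos made up a library, how many host cells the aggregated embryos kept, or what a replicate number stands for. The column names give the same-numbered libraries of both genotypes consecutive library identifiers, without saying what they shared, and p-values therefore measure the spread between these libraries, which may be technical.

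CpG methylation is copied at each round of DNA replication by Dnmt1, which is brought to newly made DNA by Uhrf1, a protein that binds CpGs methylated on the old strand alone. Dnmt3a and Dnmt3b set new methylation, helped in the germ line by Dnmt3l, which has no catalytic activity of its own. The Tet enzymes oxidise methylcytosine as a step towards its removal. In the fetal gonad the germ cells lose almost all of their methylation before they enter meiosis, and in the female line it is laid down again in growing oocytes after birth, whereas the somatic cells keep theirs.

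Library totals lay between 11036313 and 17869840 counts, with both mutant libraries shallower than the wild-type libraries, and a count of 3, taken as the floor, corresponded to 0.170 to 0.272 CPM (counts per 1000000 counts of the library, with library sizes scaled by edgeR TMM factors). Counts of Sall1, transgene and endogenous gene together, were 1243 and 1445 in the mutant and 279 and 223 in the wild-type, as the labels say (log2 fold change 2.85, adjusted p = 0.00823, edgeR quasi-likelihood test). The ovary label was checked with markers chosen after the data were seen. Foxl2, Wnt4, Rspo1 and Fst, known from the fetal ovary, were at 28.0 to 188 CPM over the libraries, and Sox9, Amh, Dhh, Insl3 and Nanos2, known from the fetal testis, were at 0 to 4.36 CPM. Across the 15442 genes that passed it, 9 (0.0583%) were called between the genotypes at an adjusted p under 0.05, or 385 with the replicate number as a block, whereas 662 were called between the replicate numbers.

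Compared per length, the genes for maintenance methylation were the most abundant (plot of RPKM by gene). RPKM, here CPM per kilobase, was computed with the merged exon length of each gene in GENCODE M1. Dnmt1 lay between 85.2 and 90.7 RPKM over the 4 libraries. Uhrf1 followed at 29.3 to 38.7 RPKM, and Dnmt3a at 16.9 to 18.7 RPKM. These ranges did not overlap each other, nor those of the genes below them. Tet1 (7.33 to 10.5 RPKM), Tet3 (6.92 to 7.84 RPKM), Tet2 (5.80 to 7.64 RPKM) and Dnmt3b (4.56 to 5.81 RPKM) followed in the order of their means, and neighbours among these genes overlapped in their ranges. With these merged lengths, Dnmt1 alone made up 51.3% to 54.4% of the summed RPKM of the 8 genes in each library, and Dnmt3b made up 2.91% to 3.32%. The level of Dnmt3a depends on the length used, and with the longest coding transcript in place of all exons its mean was 30.4 RPKM in place of 17.7 RPKM, below Uhrf1 at 40.9 RPKM. The mean of Dnmt1 was 87.15 RPKM with either length, so its share would be lower with the longest coding transcript.

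**Figure D1:**
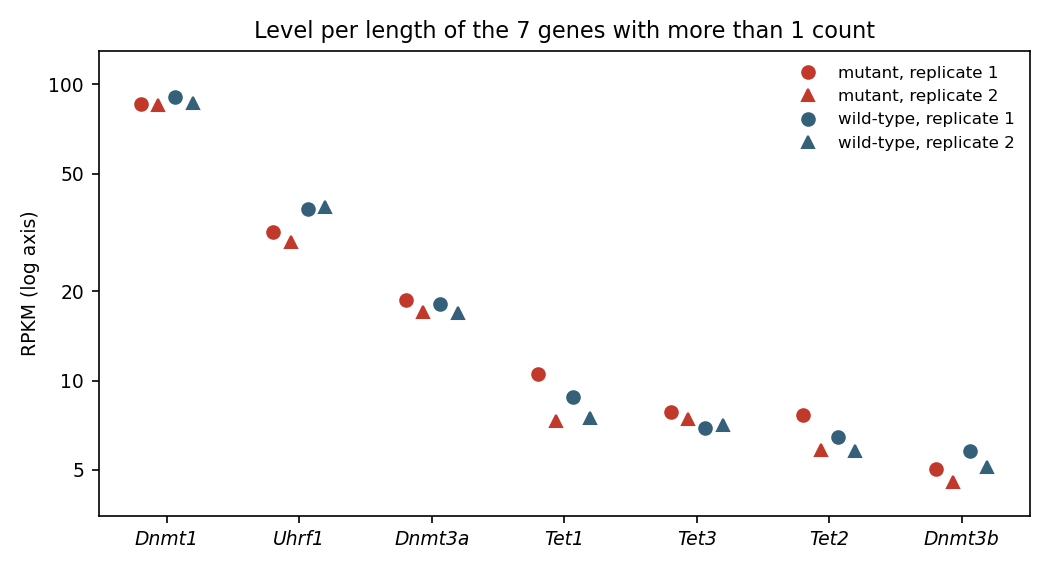
RPKM (CPM per kilobase of exon, log axis) for each gene with more than 1 count, with 1 point per library (red, mutant; blue, wild-type; circle, replicate 1; triangle, replicate 2). Dnmt1, Uhrf1 and Dnmt3a stand apart from each other and from the remaining genes, whereas the points of Tet1, Tet3, Tet2 and Dnmt3b overlap between neighbours.

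Dnmt3l was listed at or near 0. It had 1 count in mutant replicate 1 and 0 counts in each of the other libraries, all under the floor of 3 counts per library, which is 0.0569 to 0.0911 RPKM for this gene. The summed count of 1 among 61014131 has an exact 95% Poisson interval of 0.0253 to 5.57 counts, which covers counting error only. Cdc6, a gene that dividing cells use, was also at 0 in each library, and Tdg, a repair glycosylase that most cells express, had 1 count in mutant replicate 2 and 0 in the others. Whether the assignment of reads to genes left out reads of Dnmt3l was not tested. Dnmt3l lies on chromosome 10 from 77504692 to 77526367 on the plus strand (NCBIM37), and 67 of its exon bases are shared with Aire on the other strand. It did not pass the filter and was not tested, so 7 of the 8 genes entered the comparisons below.

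None of these 7 genes was called between the genotypes with edgeR, where 0.0583% of all genes were, nor under any of the 12 alternatives run, DESeq2 among them. At an unadjusted p under 0.05, Uhrf1 alone of the 7 passed, beside 5.69% of all genes. The mutant and wild-type libraries did not overlap in 4 of the 7 genes (Dnmt1, Dnmt3b and Uhrf1 lower and Tet3 higher in the mutant), beside 30.9% of all genes tested. The smallest p that exact permutation of 4 libraries can give for any 1 gene is 0.333.

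**Figure D2:**
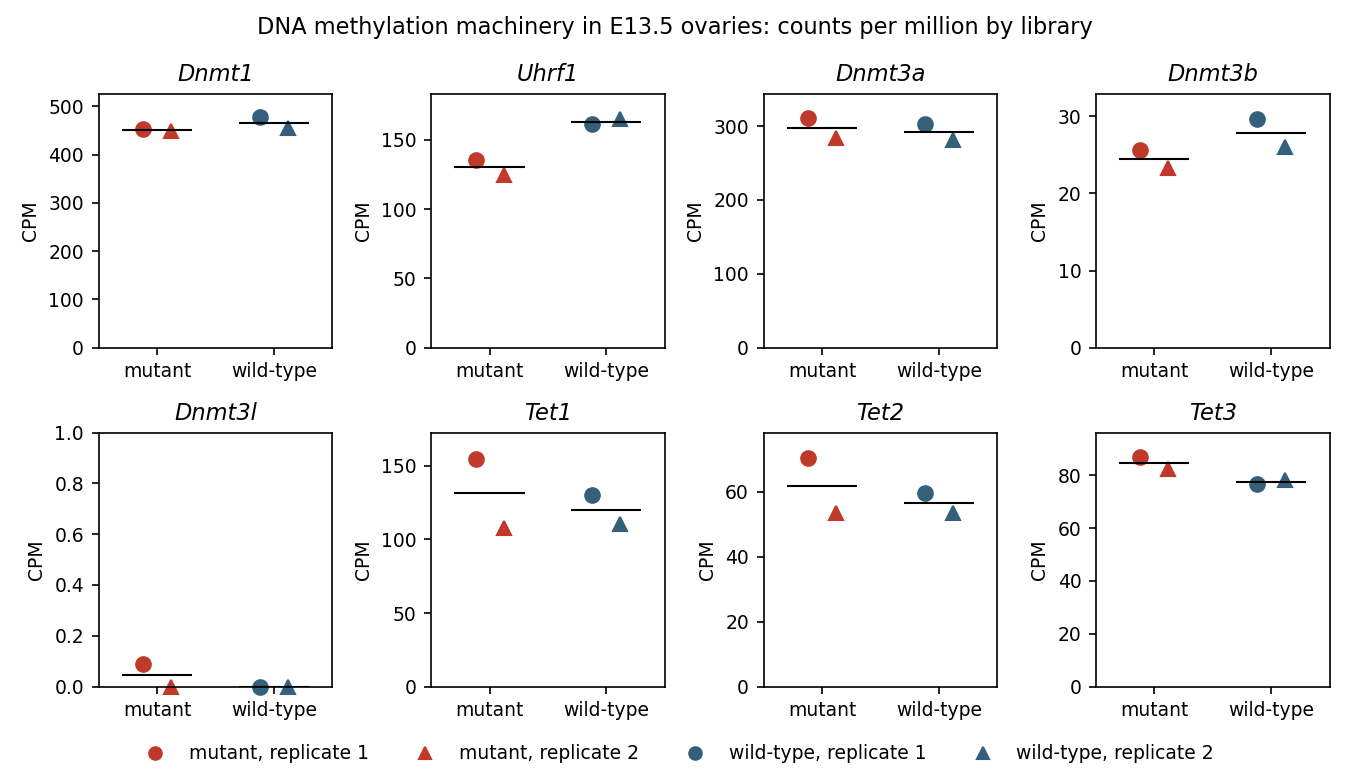
Levels in CPM (axes from 0) of the 8 genes in each library (red, mutant; blue, wild-type; circle, replicate 1; triangle, replicate 2), with the mean of each genotype as a line. The mutant points of Uhrf1 lie at 136 and 125 CPM below the wild-type points at 161 and 165 CPM, whereas in Tet1, Tet2 and Dnmt3a both circles lie above both triangles.

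Uhrf1, which reads hemimethylated DNA and recruits Dnmt1, had the largest difference between the genotypes. It lies on chromosome 17 from 56442744 to 56462909 on the plus strand (NCBIM37). Its counts were 1494 and 1878 in mutant libraries, and 2776 and 2910 in wild-type ones. This corresponds to 130 ± 7.59 CPM (SD, n = 2) in the mutant and 163 ± 2.51 CPM (SD, n = 2) in the wild-type. Both mutant libraries lay below both wild-type libraries, as in 15.1% of all genes tested. The ratio of mutant to wild-type was 0.798 with a 95% interval from 0.686 to 0.928, taken from the standard error of the fit. The log2 fold change of -0.33 (standard error 0.09) did not pass (unadjusted p = 0.00950, adjusted p = 0.530, edgeR), and Uhrf1 was number 277 of 15442 genes by p. It was below 0 under each of 12 alternatives, from -0.39 to -0.27, with adjusted p-values from 0.0508 to 1.00. Within a replicate number, the log2 difference between mutant and wild-type was -0.25 in number 1 and -0.40 in number 2.

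Dnmt1, the maintenance enzyme that Uhrf1 guides, differed little. Its gene occupies chromosome 9 from 20711650 to 20757317, minus strand (NCBIM37). Its level was 453 and 449 CPM in the mutant libraries and 478 and 456 CPM in the wild-type libraries. The groups did not overlap, but the ratio of 0.966 had an interval from 0.841 to 1.11 (log2 fold change -0.05, adjusted p = 1.00, edgeR). Within each library there were 0.299 and 0.278 Uhrf1 counts per Dnmt1 count in the mutant and 0.338 and 0.362 in the wild-type. This ratio does not depend on the scaling of the libraries, and the mutant values were again both below the wild-type values. It is a description, with no test.

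Both genes are known to be transcribed most in dividing cells, and the promoter windows of both hold letters of the kind that the cell-cycle factors of the E2F family bind. The letters TTTGGCGC and TTTCGCGC were searched on both strands in RefSeq promoter windows of GRCm38.p6, which run from 250 bases before to 50 bases after a transcription start. Windows were matched for all 8 genes. A match was found in 1 of the 3 windows of Dnmt1, in 1 of the 2 windows of Uhrf1 and in no window of the other 6 genes. This is 2 of 15 windows (13.3%), beside 0.813% of all 32851 windows, or 2 of 8 genes beside 0.929% of all 27025 genes. Of the genes with a window, 6 of 16 DNA replication and cycling genes and 1 of 12 maintenance partners held one. The matches are shown because they are what Dnmt1 and Uhrf1 share, with the searched letters in capitals. The first lies at chr9:20952824-20952853 on the minus strand, 219 bases upstream of a Dnmt1 start, where the capitals are the reverse complement of TTTCGCGC. The second lies at chr9:20952574-20952601 on the minus strand, 34 bases downstream of the same start. The third lies at chr17:56304117-56304146 on the plus strand, 185 bases upstream of a Uhrf1 start. A match of letters is a description and not a binding site. CpG dinucleotides, the letters that these enzymes act on, numbered from 2 in another window of Dnmt1 to 57 in the window of Tet2, beside a median of 7 for all windows. The windows of Dnmt3l held 3 to 6. The matching windows of Dnmt1 and Uhrf1 held 33 each, and 91.4% of all windows held fewer. Both searched strings contain CpG themselves, and the share of matches among windows as rich in CpG was not examined.
Dnmt1, upstream: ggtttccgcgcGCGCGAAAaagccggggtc
Dnmt1, downstream: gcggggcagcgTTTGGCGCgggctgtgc
Uhrf1, upstream: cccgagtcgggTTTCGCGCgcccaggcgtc

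Beside Uhrf1, most DNA replication and cycling genes had negative log2 fold changes. Of 20 listed genes 19 were tested, and 0 were called with edgeR, with 1 at an unadjusted p under 0.05 beside 5.69% of all genes. Their log2 fold changes ran from -0.23 to 0.09 with a median of -0.11, beside -0.00088 for all genes. Of the 19, 17 were negative, and Ccne2 (0.09) and Mki67 (0.06) were positive. Both mutant libraries lay below both wild-type libraries in 9 of the 19, beside 15.1% of all genes. Their summed level was 3610 to 3921 CPM in the mutant and 4009 to 4055 CPM in the wild-type, and Cdc6 was at 0 counts in each library. The gene at an unadjusted p under 0.05 was Rrm1, a subunit of the enzyme that makes deoxyribonucleotides (log2 fold change -0.22, adjusted p = 0.836, edgeR). All 9 erythroid markers tested also had negative log2 fold changes with a median of -0.63, with 0 called and 3 at an unadjusted p under 0.05. The erythroid list summed to 3230 and 887 CPM in mutant replicates 1 and 2 and to 3583 and 1747 CPM in wild-type replicates 1 and 2. Most of this was Hbb-y, at 2762 and 774 CPM in the mutant and 3004 and 1488 CPM in the wild-type. The globins Hba-a2 and Hbb-b1 were at 0 in each library, and Hba-a1 had 1 count in replicate 1 of each genotype and 0 in replicate 2. Whether the assignment of reads to genes left out reads of these globins was not tested. In the other marker lists 0 genes were called as well, with median log2 fold changes of 0.14 for germ cell identity, 0.09 for meiotic, 0.04 for gonadal somatic, 0.20 for macrophage, -0.12 for endothelial and 0.42 for mesonephric genes. At an unadjusted p under 0.05 there were 0 germ cell identity, 0 meiotic, 4 gonadal somatic, 0 macrophage, 1 endothelial and 1 mesonephric genes, out of 9, 12, 12, 7, 8 and 5 tested, beside 5.69% of all genes. Of the 4 gonadal somatic genes, Bmp2 (log2 fold change -0.80) and Lhx9 (-0.56) were lower and Foxl2 (0.59) and Irx3 (0.34) higher in the mutant. In 4 of the 12 gonadal somatic genes both mutant libraries were higher, and in 2 lower, beside 15.8% and 15.1% of all genes. The part of any of these lists in the Uhrf1 difference was not tested. In whole ovaries, fewer cells of a type cannot be told apart from less RNA per cell.

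Of the de novo enzymes, Dnmt3a was high and Dnmt3b low. Dnmt3a lies on chromosome 12 from 3806007 to 3914443 on the plus strand (NCBIM37), and had 311 and 284 CPM in the mutant and 302 and 281 CPM in the wild-type libraries. The groups overlapped, and the ratio was 1.02 with an interval from 0.875 to 1.19 (adjusted p = 1.00, edgeR). Its exons share 133 bases with the antisense transcript Gm10485, and the separately listed antisense gene Dnmt3aos had 0 to 3 counts per library. Dnmt3b lies on chromosome 2 from 153475186 to 153513466 on the plus strand, and had 25.7 and 23.3 CPM in the mutant and 29.6 and 26.1 CPM in the wild-type libraries. The wild-type libraries were both higher, but the interval of the ratio, 0.704 to 1.09 around 0.878, includes equality (log2 fold change -0.19, standard error 0.13, adjusted p = 1.00, edgeR). Within a library there were 0.0825 and 0.0818 Dnmt3b counts per Dnmt3a count in the mutant and 0.0981 and 0.0926 in the wild-type. Counts per gene do not separate the long and short forms of Dnmt3a, nor the oocyte and somatic forms of Dnmt1.

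The Tet genes had positive log2 fold changes of 0.12 to 0.13, none of which passed the test. Tet3 (chromosome 6, 83312367 to 83391672, minus strand, NCBIM37) had 86.9 and 82.6 CPM in the mutant and 76.7 and 78.3 CPM in the wild-type libraries. The groups did not overlap, and the ratio of 1.09 had an interval from 0.934 to 1.28 (adjusted p = 1.00, edgeR). Tet1 (chromosome 10, 62267318 to 62361866, minus strand) had 155 and 108 CPM in the mutant and 130 and 110 CPM in the wild-type libraries. Tet2 (chromosome 3, 133126643 to 133207354, minus strand) had 70.3 and 53.6 CPM in the mutant and 59.5 and 53.4 CPM in the wild-type libraries. In Tet1 the replicates of the mutant differed more from each other than the genotype means did, and the interval of its ratio reached from 0.816 to 1.46. Without mutant replicate 1 the log2 fold changes of Tet1, Tet2 and Dnmt3a turned negative, at -0.16, -0.08 and -0.04.

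**Figure D3:**
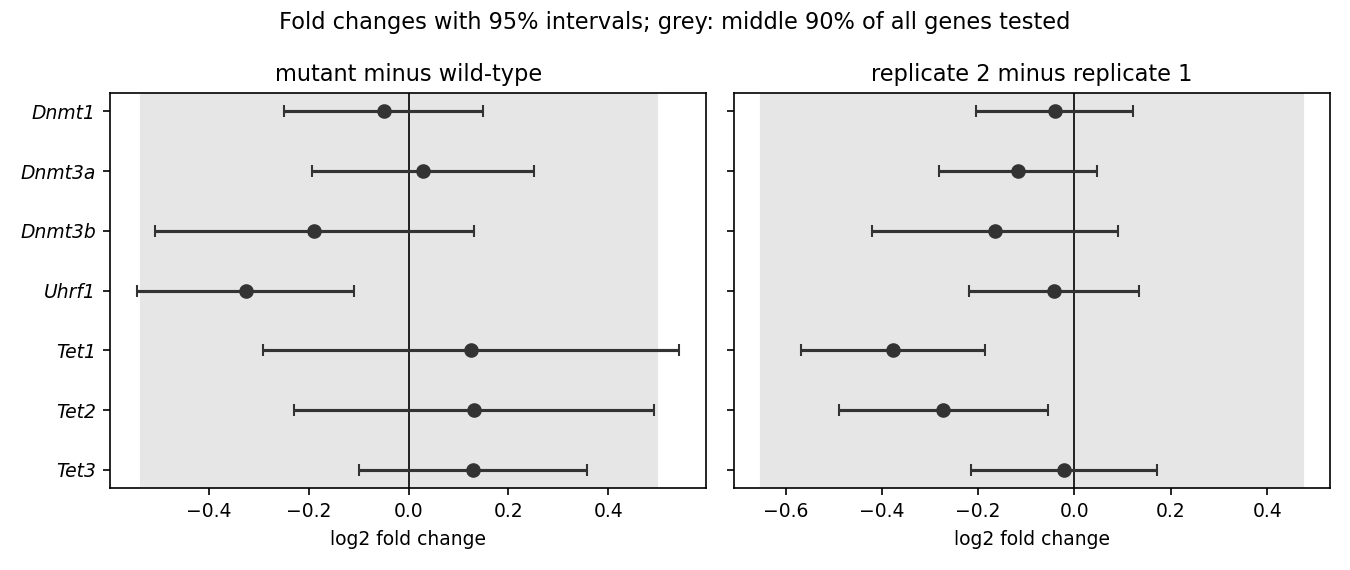
Log2 fold changes of the 7 genes tested (points) with 95% intervals from the standard errors of the fits (bars), for genotype on the left and for replicate number on the right. The grey band spans the middle 90% of all genes tested, from -0.54 to 0.50 and from -0.65 to 0.47. Only Uhrf1 on the left and Tet1 and Tet2 on the right have intervals that leave out 0.

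Tet1 and Tet2 had larger log2 differences by replicate number than by genotype, and Tet3 a smaller one. Tet1 fell in the libraries numbered 2, to 108 and 110 CPM from 155 and 130 CPM in those numbered 1, without overlap. This is -0.38 on the log2 scale (standard error 0.09, adjusted p = 0.0259, edgeR with genotype and number in the model). Tet1 was the only call among the 7 genes, or 1 lower and 0 higher, beside 2.73% of all genes called lower. The ratio of replicate 2 to replicate 1 was 0.770 with an interval from 0.675 to 0.879. The log2 difference was -0.52 within the mutant and -0.24 within the wild-type. The call was lost with DESeq2 (adjusted p = 0.359), without the filter (adjusted p = 0.0604) and with library totals in place of TMM (adjusted p = 0.0600), and held in the other 4 alternatives.

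Tet2 had a log2 difference of the same sign in both genotypes, -0.39 in the mutant and -0.16 in the wild-type. Its fold change of -0.27 (standard error 0.10) did not pass (adjusted p = 0.168, edgeR). Tet3 was at -0.02 (standard error 0.09, adjusted p = 0.936, edgeR). There were 1.78 and 1.70 Tet1 counts per Tet3 count in the libraries numbered 1, mutant first, and 1.31 and 1.41 in those numbered 2. The difference between Tet1 and Tet3 was not tested beyond these ratios. Of the 7 genes, 5 were lower in replicate 2 in both genotypes (Dnmt1, Dnmt3a, Dnmt3b, Tet1 and Tet2), beside 32.6% of all genes. The log2 fold changes of the methyltransferases and Uhrf1 between the numbers ran from -0.17 for Dnmt3b to -0.04 for Dnmt1 and Uhrf1, and none passed. Dnmt3a differed more by number (-0.12, adjusted p = 0.474, edgeR) than by genotype (0.03). Both of its libraries numbered 2 lay below both numbered 1, as in Tet1 and Tet2.

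Tet1 is known to be expressed in fetal germ cells, and germ cell genes also differed between the numbers. Of the 9 germ cell identity genes tested 3 were called lower in replicate 2 and 0 higher, beside 2.73% of all genes called lower. They were Sall4 (log2 fold change -0.60, adjusted p = 0.000445), Tfap2c (-0.56, adjusted p = 0.00779) and Dppa5a (-0.48, adjusted p = 0.00888), all known as genes of germ cells that have not yet entered meiosis. The median of the 9 was -0.14, with Dnd1 (0.10) and Nanos3 (0.004) positive. Their summed level was 655 and 581 CPM in replicate 1 of the mutant and wild-type against 490 and 498 CPM in replicate 2. Of the 12 meiotic genes tested 3 were called higher and 0 lower, beside 1.56% of all genes called higher. They were Stra8, the gatekeeper of meiotic entry (0.47, adjusted p = 0.0244), Meioc, listed under its older symbol Gm1564 (0.57, adjusted p = 0.0373), and Meiob (1.76, adjusted p = 0.0231). The median of the 12 was 0.30, with Rec8 (-0.09) and Syce3 (-0.22) negative. The summed level of the meiotic genes was 1062 and 1586 CPM in mutant replicates 1 and 2, and 1354 and 1271 CPM in wild-type replicates 1 and 2, so the list as a whole was higher in replicate 2 within the mutant only.

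Markers outside the germ line moved with the number as well. The 9 erythroid genes tested had a median log2 fold change of -1.05, and 6 of them were called lower in replicate 2, beside 2.73% of all genes. Their summed level was 3230 and 887 CPM in mutant replicates 1 and 2 and 3583 and 1747 CPM in wild-type replicates 1 and 2. Gata4 (-0.38, adjusted p = 0.0108) and Runx1 (-0.40, adjusted p = 0.0478), both expressed in gonadal somatic cells, were called lower too, as 2 of 12 listed genes, beside the same 2.73%. Of the 7 macrophage markers tested 1, C1qa, was called lower, again beside 2.73%, and Emr1 was at 0 counts in each library. Of the 5 mesonephric markers tested 1, Cdh16, was called higher, beside 1.56% of all genes. Of the 8 endothelial markers 0 were called, with 1 at an unadjusted p under 0.05 beside 17.4% of all genes. The part of any of these lists in the Tet1 difference was not tested.

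**Figure D4:**
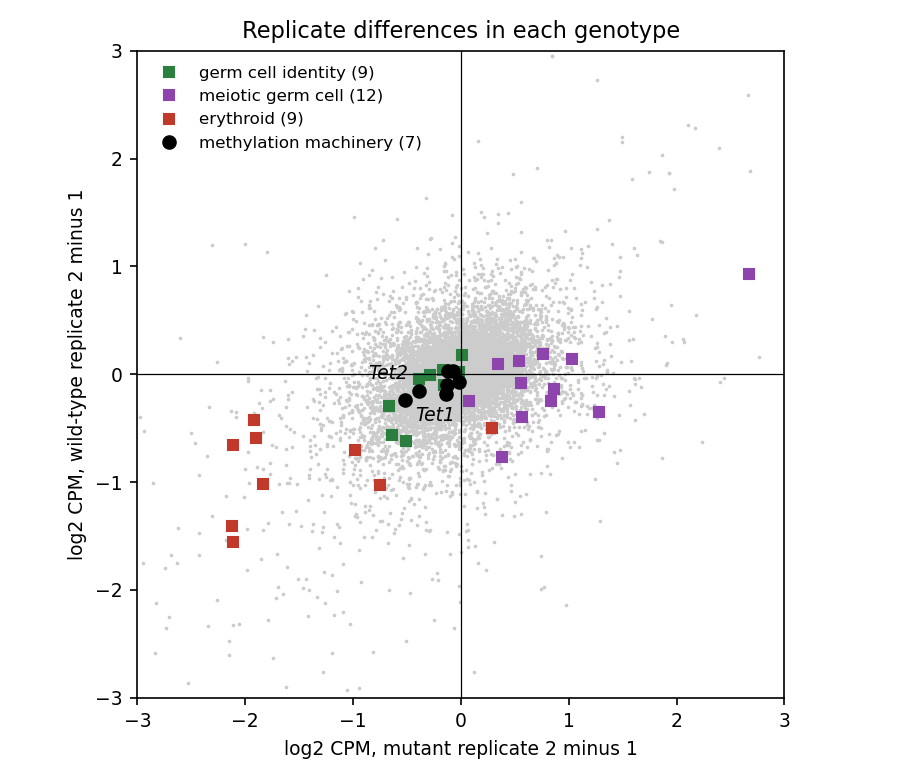
Log2 CPM of replicate 2 minus replicate 1 in the mutant (horizontal) and in the wild-type (vertical), with the 7 methylation genes in black, germ cell identity genes in green, meiotic genes in purple, erythroid genes in red and 14396 genes with a mean of at least 1 CPM in grey, of which 68 lie outside the axes. Tet1 lies at -0.52 and -0.24 and Tet2 at -0.39 and -0.16, below 0 in both genotypes as are 6 of 9 germ cell identity genes and 8 of 9 erythroid genes, which reach -2.12 and -1.41 for Hba-x. All 12 meiotic genes lie right of 0, above 0 in the mutant. In the wild-type they lie on both sides of 0, from -0.77 for Syce3 to 0.93 for Meiob.

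Tet1 had the widest range of the 7 genes over the 4 libraries (0.52 on the log2 CPM scale). Among 10964 other genes with a mean of at least 100 counts, the centred log2 CPM profile over the 4 libraries was closest to that of Tet1 in Gas1 (Euclidean distance 0.00865), a gene named for growth arrest, followed by Kctd11, Chit1, Adat2 and Frmd4b (distances from 0.0203 to 0.0463). Over 4 libraries such closeness is a description only. Gas1 had 93.7 and 65.9 CPM in mutant replicates 1 and 2 and 79.2 and 66.9 CPM in wild-type replicates 1 and 2.

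Genes that work with the 8, and germline genes known to be silenced by methylation in somatic cells, were examined in 6 lists of 70 genes. Of these 70, 65 were tested and 0 were called between the genotypes, where 3 had an unadjusted p under 0.05, beside 5.69% of all genes. The smallest adjusted p was 0.514. The median log2 fold change was 0.00164, beside -0.00088 for all genes, and in 14 of the 65 genes the groups did not overlap, which is 21.5% beside 30.9% of all genes. Between the replicate numbers 1 of the 65 was called, as higher in replicate 2, beside 1.56% of all genes called higher and 2.73% called lower.

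Of the 13 partners in maintenance and targeting, 10 had negative and 3 positive log2 fold changes with a median of -0.04. Zfp57, which guards imprints together with Trim28, had 42.1 and 42.9 CPM in the mutant and 47.3 and 51.7 CPM in the wild-type libraries (log2 fold change -0.22, adjusted p = 1.00). Its groups did not overlap. Pcna, the sliding clamp of the replication fork, had -0.13 with overlapping groups. Uhrf2, the paralogue of Uhrf1, had 99.5 and 98.6 CPM in the mutant and 92.7 and 112 CPM in the wild-type libraries, so its wild-type libraries enclosed the mutant ones. Hells, a chromatin remodeller that works in maintenance methylation, had -0.04. Both were chosen for naming after their values were seen.

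Among the 3 tested homologues and H3K36 methyltransferases, Trdmt1, which methylates transfer RNA, had a log2 fold change of -0.14, and Nsd1, which places the histone mark that Dnmt3a reads, had 0.08. In both the groups overlapped, and Dnmt3c is not analysed here because its symbol was not matched. Of the 17 demethylation and repair genes tested, 9 were positive and 8 negative with a median of 0.04. Neil1, a DNA glycosylase, had 0.18 and Cxxc5, a zinc finger protein that binds CpG, had 0.16, each higher in both mutant libraries (adjusted p = 1.00 for both).

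Of the 7 genes for proteins that bind methylated CpG, 3 were higher in both mutant libraries, beside 15.8% of all genes, and 0 lower, with a median of 0.03. Zbtb38 had 27.4 and 25.1 CPM in the mutant and 17.9 and 22.8 CPM in the wild-type libraries (log2 fold change 0.37, standard error 0.16, adjusted p = 0.891). Zbtb4, a zinc finger protein of the same family, had 0.22 (adjusted p = 1.00). Of the 13 genes of the methyl donor cycle tested, 4 were higher in both mutant libraries, again beside 15.8%, and 0 lower, with a median of 0.00164. Mtr, methionine synthase, had 242 and 262 CPM in the mutant and 204 and 199 CPM in the wild-type libraries. Its groups did not overlap, and the difference of 0.32 on the log2 scale did not pass (standard error 0.09, unadjusted p = 0.00861, adjusted p = 0.514, edgeR). Ahcyl2 had 0.21 (adjusted p = 1.00). Bhmt, which makes methionine from betaine and was chosen for naming after its values were seen, had the largest fold change of the list at 1.03 (adjusted p = 0.670), at 3.27 and 3.99 CPM in the mutant and 1.86 and 1.70 CPM in the wild-type libraries.

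Germline genes whose promoters are known to be silenced by methylation in somatic cells showed no call between the genotypes, with 8 of 12 positive and a median of 0.03. Tex101 had 32.3 and 80.6 CPM in the mutant and 49.1 and 46.2 CPM in the wild-type libraries, so the mutant libraries enclosed the wild-type ones (log2 fold change 0.25, standard error 0.36). Tex19.1 had 108 and 116 CPM in the mutant against 134 and 127 CPM in the wild-type libraries (log2 fold change -0.22, unadjusted p = 0.0490, adjusted p = 0.873). Stk31, a germ cell kinase-like gene, rose in replicate 2 (log2 fold change 0.40, adjusted p = 0.0458), from 220 to 351 CPM in the mutant and from 259 to 282 CPM in the wild-type. Each of these 12 genes was detected at 32.3 CPM or more in every library of these ovaries, which hold germ cells.

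**Figure D5:**
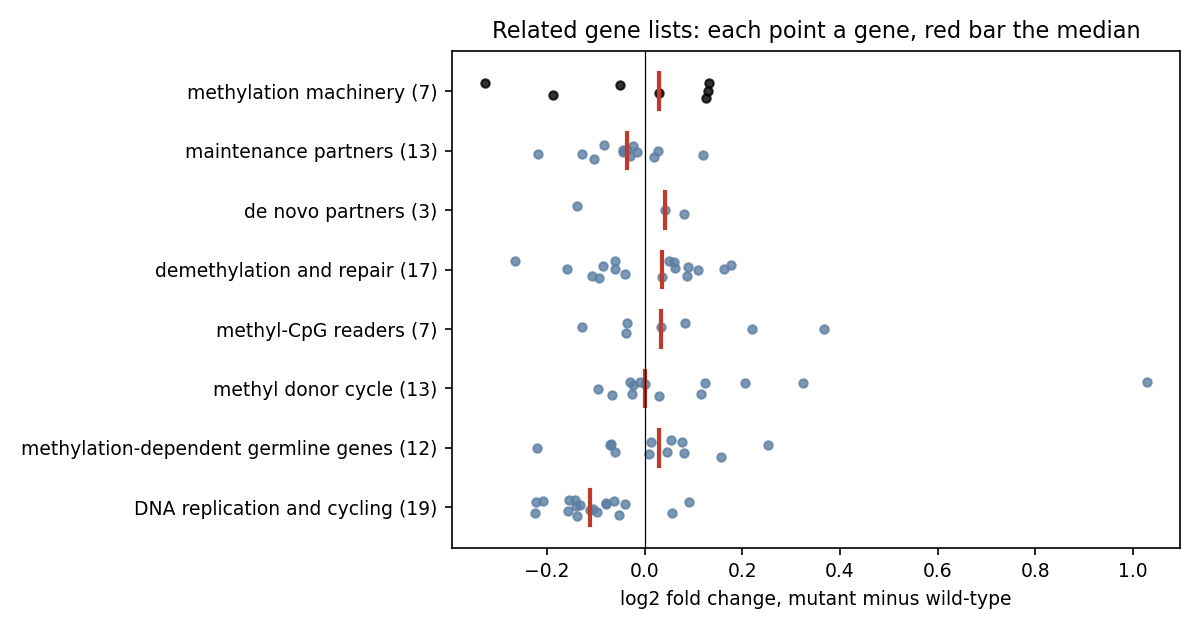
Log2 fold changes (mutant minus wild-type) of the 7 methylation genes, the 6 related lists and the DNA replication genes, with 1 point per gene tested, the number of genes in brackets and the median as a red bar. Uhrf1 is the lowest point of the top row, and the replication genes have the lowest median of the lists at -0.11; the point near 1.03 is Bhmt, at 1.70 to 3.99 CPM.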

How the data were processed

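RNA was measured in 4 libraries of E13.5 mouse ovaries. The authors deposited raw counts per gene symbol, made with STAR 2.6.1d and summarizeOverlaps and neither normalized nor pooled. The submitters' processing notes name mm9. The annotation and the handling of strand are not given in the sources used here. Columns were matched to libraries by genotype and replicate number, and 0 columns were unused.

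Counts were analysed in R 4.3.3 with edgeR 4.0.16 (filterByExpr, TMM, quasi-likelihood test, p adjusted by Benjamini-Hochberg over 15442 genes, threshold 0.05). Genotype was the only factor, and the replicate number was tested in an additive fit. Standard errors were derived from fold changes and F values. DESeq2 1.42.0, other normalizations and filters, the likelihood ratio test, the replicate block and leaving out each library were alternatives. Positions and lengths are from GENCODE M1 on NCBIM37 (mm9), and promoter windows from RefSeq on GRCm38.p6.

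The members and lists were chosen with earlier results of these data known. Genes named from the lists were those called, or the 2 with the largest change at a mean of at least 100 counts. Others were named after their values were seen.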

Additional observations from a re-analysis of the deposited data

Results flagged for a closer look

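The differences between replicate numbers had opposite signs in the genotypes for 2 of the 7 genes tested. For Uhrf1 the log2 CPM of replicate 2 minus replicate 1 was -0.119 in the mutant and 0.0314 in the wild-type. For Tet3 it was -0.0743 in the mutant and 0.0296 in the wild-type. Each value rests on 1 pair of libraries and the difference between the genotypes was not tested.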

How the results depend on the processing

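None of the 7 genes passed between the genotypes in any of 12 alternatives, and 80 of 84 values kept their direction and side of the threshold. The nearest to the threshold was Uhrf1 under the replicate block (log2 fold change -0.33, adjusted p = 0.0508, edgeR). Libraries of the same number deviated together from their group means (correlation across genes 0.481), but the labels do not say what the 2 pairs share, and the block moved the genes called from 9 to 385. They were 28 without the filter, 19 with at least 10 counts in every library, 105 with DESeq2 and 134 with the likelihood ratio test, and from 4 (without wild-type replicate 2) to 130 (without mutant replicate 1) with a library left out, where a lone library is assumed to vary like the other group. Genes called by number, 662, became 353 with library totals, 125 with DESeq2, 904 with the likelihood ratio test and 466 to 588 in the other 4 alternatives. The Tet1 difference by number, -0.38, stayed at -0.38 with library totals and without the filter and was -0.37 with DESeq2, each no longer past the threshold. The cause of these changes was not tested.

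With each library left out, the genotype fold changes ranged from -0.0391 to 0.0921 for Dnmt3a, from -0.16 to 0.36 for Tet1 and from -0.0769 to 0.32 for Tet2, negative without mutant replicate 1 and, for Dnmt3a, also without wild-type replicate 2. By number, where a left-out library leaves no test, Uhrf1 ranged from -0.119 to 0.0314 and Tet3 from -0.0743 to 0.0296, positive in the wild-type pair. With the longest coding transcript as length, the RPKM became 30.4 for Dnmt3a, 6.06 for Dnmt3b and 40.9 for Uhrf1. Dnmt3l did not pass the filter and was not tested.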
